A study of Mus musculus with 32 samples.

Results

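In B6 mouse testes, most sites where DMC1 marked a meiotic DNA break carried neither a PRDM9 peak nor an H3K4me3 peak. Members were chosen by peak calls in these same data: a DMC1 interval was called unmarked when its central 400 bp shared no base with the B6 PRDM9 list, with the B6-specific H3K4me3 list or with the list of H3K4me3 common to B6 and RJ2. This gave 8115 of 14774 B6 DMC1 sites (54.9%, 95% Clopper-Pearson interval 54.1 to 55.7%). The remaining B6 sites were 1857 with a PRDM9 peak at the central part (PRDM9-bearing), 4320 with B6-specific H3K4me3 and no PRDM9 peak (H3K4me3-only), and 482 with common H3K4me3 alone. Absence of a mark means only that no deposited interval lay there, and histone H3K36me3 was not analysed here.

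The B6 mice were C57BL/6JOlaHsd and carry the Dom2 allele of Prdm9. DMC1 was precipitated from whole testes at 5 weeks after birth, with an antibody to DMC1 and 2 replicates. PRDM9 was precipitated from whole testes at 13 days after birth, with 2 replicates, and H3K4me3 from elutriated pachytene cells of adults, with 1 library. The contrast strain RJ2, B10.MOLSGR(A)-(D17Mit58-D17Jcs11)/Bdm, carries the Cst allele on a C57BL/10 background and was profiled with the same antibodies, ages and numbers of replicates. PRDM9 lists of Spo11 KO mice (Spo11tm1M, with the Dom2 allele, 2 replicates) and Prdm9 KO mice (B6;129P2-Prdm9tm1Ymat/J, 1 library), both from whole testes at 13 days after birth, were also used. The DMC1 mice were wild type for Spo11 and Prdm9 and received no agent. The lists pool replicates and hold positions on the mouse build mm9 without a score or a read count, so the units of every test are intervals, not mice, and neighbouring intervals are not independent. In whole testes, a mark held by few cells and a weak mark held by many cells cannot be told apart.

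Meiotic recombination starts when SPO11 cuts both DNA strands. DMC1, the meiotic strand exchange protein, then coats the single-stranded ends, so a DMC1 peak maps a break still under repair. At most hotspots in mice the place is chosen by PRDM9, whose zinc fingers read a DNA motif that differs between alleles and whose methyltransferase domain puts trimethyl groups on lysine 4 and lysine 36 of histone H3 on nearby nucleosomes.

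The sequence at the centre of the unmarked sites held the motif of the PRDM9 Dom2 allele as often, within a few percentage points, as sites with H3K4me3 did. A scoring matrix was learned on 902 PRDM9-bearing B6 sites of odd-numbered autosomes, none of them a member. It grew from the word AGGTGCTGC to 15 positions, NCAGGTGCTGCTGCC, where N stands for a position at which no base reached 50% of the aligned matches. Both strands were searched, and a site counted as matched when a window within 100 bp of its centre reached a log2 odds score of 9.85, which 5% of windows 5 kb upstream of the training sites reached. The members with the highest scores are shown because they carry the motif nearly unbroken without any of the 3 marks. The matched 15 bases are in capitals, with 10 bases on each side, read 5′ to 3′ on the strand of the match.
chr1:139260688-139260722 (intergenic, minus strand): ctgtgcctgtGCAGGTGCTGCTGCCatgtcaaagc
chr8:25494569-25494603 (intergenic, plus strand): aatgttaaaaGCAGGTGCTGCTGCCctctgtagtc
chr14:119473256-119473290 (intron of Uggt2, plus strand): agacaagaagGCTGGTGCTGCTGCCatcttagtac
chr1:108158929-108158963 (intron of Phlpp1, plus strand): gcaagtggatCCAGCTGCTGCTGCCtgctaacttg
chrX:75816734-75816768 (intron of Prrg1, minus strand): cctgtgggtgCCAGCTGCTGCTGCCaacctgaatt
chr13:117270544-117270578 (intergenic, plus strand): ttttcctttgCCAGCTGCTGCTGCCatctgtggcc
Their scores ran from 23.5 to 25.0, where 25.0 is the highest the matrix can give. At chr1:139260688-139260722 the middle of the match lay 6 bp before the centre of the DMC1 interval (an offset of -6 bp), and at chr1:108158929-108158963 it lay 4 bp after the centre. For the first of these sites the nearest mark was common H3K4me3, 37826 bp beyond the central 400 bp.

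Of the 8115 members, 2672 (32.9%) matched the Dom2 matrix within 100 bp of the centre, where 34.9% of all B6 DMC1 sites did. The share in windows 5 kb upstream of the same members was 3.46%. A match at the centre alone was found at 2588 sites and a match at the flank alone at 197 (exact McNemar test, two-sided, p below 1e-300). Among H3K4me3-only sites 1473 of 4320 (34.1%) matched, a difference of -1.17 percentage points (95% Newcombe interval -2.92 to 0.567, Fisher's exact test, adjusted p = 0.234). The difference therefore missed the threshold, and its interval leaves room for a deficit of up to 2.92 percentage points in the unmarked sites. Among PRDM9-bearing sites that were not used for training, 434 of 955 (45.4%) matched. At the stricter score that 1% of flanking windows reached, 15.2% of members and 14.9% of H3K4me3-only sites matched. Width bears on this comparison: stratified by quintiles of interval width, an analysis added after seeing the data, the difference was -3.20 percentage points (exact conditional test over the quintiles, adjusted p = 7.22e-04).

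The match differed with the Prdm9 allele of the strain. Of the unmarked RJ2 DMC1 sites, chosen by the same rule with the RJ2 lists, 69 of 2207 (3.13%) matched the Dom2 matrix, 29.8 percentage points fewer than the unmarked B6 sites (interval of the difference 28.5 to 31.0, Fisher's exact test, p = 8.59e-230). A matrix learned in the same way for the Cst allele on 3518 RJ2 sites, with the word GAAAGGTCA at its core, gave the mirror image, with 745 unmarked RJ2 sites (33.8%) and 403 unmarked B6 sites (4.97%). In the members, Dom2 matches lay a median of 44.0 bp from the interval's centre, 56.5% lay within 50 bp, and 50.6% were on the plus strand. The profile of matches around the centre shows that unmarked and H3K4me3-only B6 sites rose to nearly the same height over the same stretch.

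**Figure D1:**
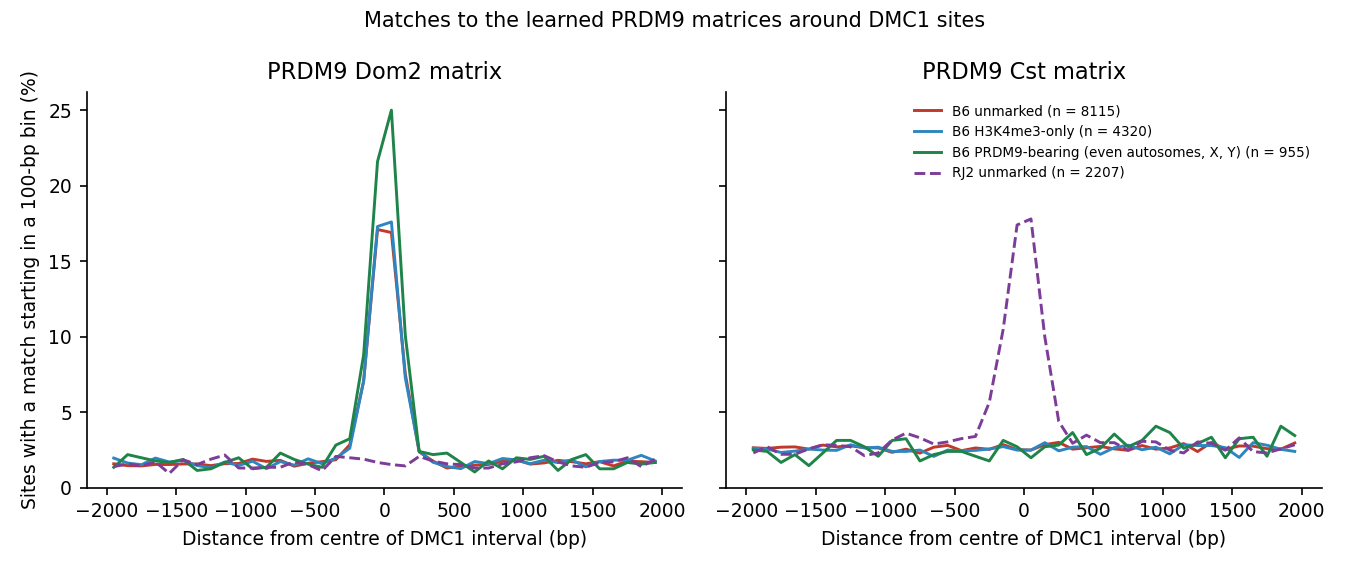
Share of DMC1 sites (%) with a match centred in each 100-bp bin, against distance from the centre of the DMC1 interval (bp), for the Dom2 matrix (left) and the Cst matrix (right), in unmarked, H3K4me3-only and PRDM9-bearing B6 sites and in unmarked RJ2 sites. Matches are placed by their middle base, although the axis title says starting. The 8115 unmarked B6 sites follow the 4320 H3K4me3-only sites in a peak at the centre for Dom2 and are flat for Cst, and the 2207 unmarked RJ2 sites show the opposite.

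Unmarked sites were the narrow end of the DMC1 list. Interval width is the only measure of size that the list holds. The width of the members ran from 878 to 3950 bp with a median of 1660 bp and a middle 50% from 1520 to 1828 bp. The median was 1826 bp for H3K4me3-only sites, 2024 bp for PRDM9-bearing sites and 1764 bp for sites in common H3K4me3. Of the members, 5292 (65.2%) were at or under the median width of the whole list, where 50.2% of all sites lie because of ties, against 1608 H3K4me3-only sites (37.2%). The difference of 28.0 percentage points (26.2 to 29.8) was the largest of the 10 properties compared on that scale (Fisher's exact test, adjusted p = 3.22e-196) and had the same direction on 20 of 20 chromosomes, the autosomes and the X. Rare properties cannot differ by many percentage points. As an odds ratio the contrast in width was 3.16, under the 5.28 for an RJ2 DMC1 centre within 1 kb.

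The share of unmarked sites fell in each step of width. It was 81.3% in the narrowest quintile of the list (878 to 1546 bp), then 67.4%, 55.2% and 44.0%, and 26.8% in the widest quintile (2000 to 4634 bp). Over the same quintiles, the share of sites with a PRDM9 peak went from 2.34 to 33.5%. The widest quintile still held 794 unmarked sites. Among members the Dom2 motif was less frequent in that widest quintile, 202 of 794 (25.4%) against 2470 of 7321 in the narrower members (33.7%), a difference of -8.30 percentage points (-11.4 to -4.98, Fisher's exact test, adjusted over 7 comparisons within members, p = 1.22e-05). The 794 wide members thus held the motif less often than narrow ones, as did the H3K4me3-only sites of that quintile (25.7%).

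**Figure D2:**
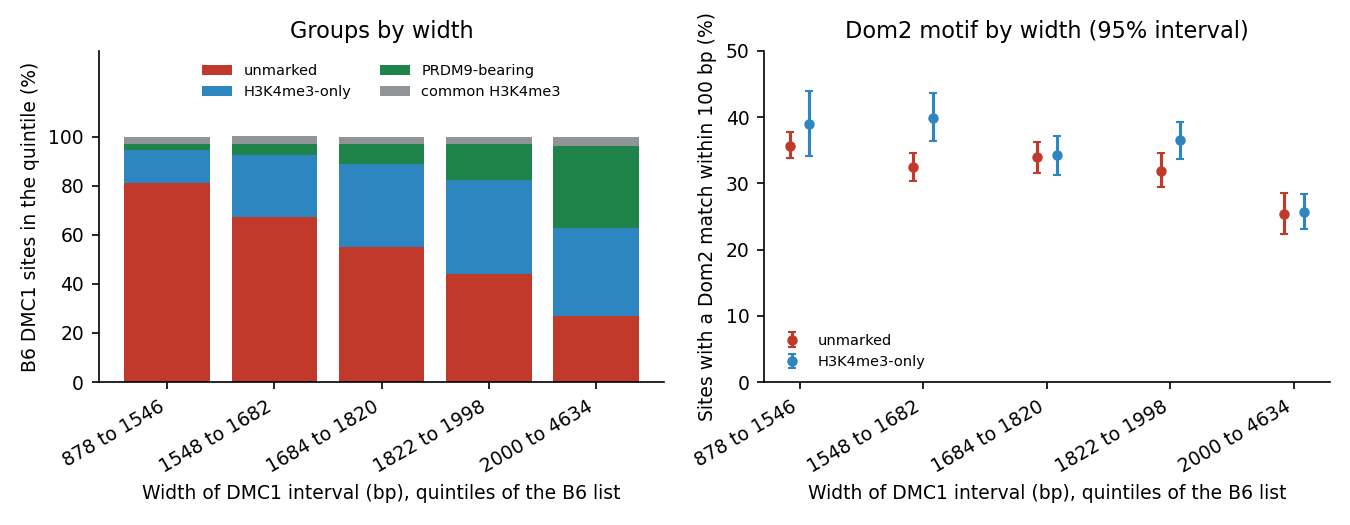
Left, share (%) of each group of B6 DMC1 sites in quintiles of the list by interval width (bp), as stacked bars. Right, share (%) of unmarked and H3K4me3-only sites with a Dom2 match within 100 bp of the centre in the same quintiles, with 95% Clopper-Pearson intervals. Unmarked sites go from 81.3% of the narrowest quintile to 26.8% of the widest, and the motif share of unmarked sites from 35.7 to 25.4%.

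The 3 widest autosomal members lay between genes. The first was chr3:19598638-19602587 (3950 bp), 5217 bp from the transcription start of Crh, which encodes corticotropin-releasing hormone. The others were chr4:21633131-21636912 (3782 bp), whose nearest start was that of Ccnc, a cyclin gene, and chr12:75434437-75438036 (3600 bp), where B6-specific H3K4me3 began 4 bp beyond the central part. None of the 3 had a Dom2 match. The widest members on the X were chrX:12009851-12013728 (3878 bp, intergenic), chrX:156498852-156501751 (2900 bp, in an intron of Map3k15, a kinase gene) and chrX:166420835-166423622 (2788 bp, in an intron of Mid1). These also had no match.

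Few unmarked sites had a PRDM9 peak in testes without SPO11, a count that the rule largely sets. Of the 1070 Spo11 KO peaks, 923 (86.3%) overlapped a B6 PRDM9 peak, and sites with such a peak at their central part were taken out of the unmarked group. A Spo11 KO peak lay within 1 kb of the centre of 10 members (0.123%, interval 0.0591 to 0.227%), where 6.69% of all B6 DMC1 sites had such a peak. The count was 58 of 4320 for H3K4me3-only sites (1.34%) and 916 of 1857 for PRDM9-bearing sites (49.3%). The gap from the whole list and from PRDM9-bearing sites follows from the rule. H3K4me3-only sites also lack a B6 PRDM9 peak, and the difference from them was -1.22 percentage points (-1.61 to -0.900, Fisher's exact test, adjusted p = 4.25e-17) and had the same direction on 20 of 20 chromosomes. The rule parts these 2 groups by B6-specific H3K4me3, which the paper ties to PRDM9 activity. This difference too is thus partly built in and is no independent result about the members. Only the 147 Spo11 KO peaks that overlap no listed B6 peak (13.7%), and those beyond the central part, could lie in these 2 groups. The authors took B6 peaks also found in RJ2 out of the list, so some of the 147 may overlap a removed B6 peak. Against all B6 peaks, removed ones included, the paper counts slightly more Spo11 KO peaks as overlapping. The Spo11 KO list comes from libraries other than those of the rule but from the same antibody and age as the B6 PRDM9 list.

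Of the 10 members, 8 had the peak over the centre base itself and 5 had a Dom2 match. The matches of 4 members with a peak over the centre are shown. A PRDM9 peak is listed there in the mutant and none in the B6 list, from which peaks shared with RJ2 were removed. The letters of the matches can be set beside the unbroken motif above (capitals mark the matched 15 bases, plus strand).
chr12:8531851-8531885 (intergenic): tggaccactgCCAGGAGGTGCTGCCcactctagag
chr4:27812948-27812982 (intergenic): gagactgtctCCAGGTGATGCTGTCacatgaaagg
chr9:90932051-90932085 (intergenic): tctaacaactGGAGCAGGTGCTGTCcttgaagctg
chr4:48659619-48659653 (intron of Tmeff1): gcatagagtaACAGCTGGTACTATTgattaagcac
Their scores were 16.9, 18.7, 11.3 and 11.1 in that order. The members shown above were picked for the highest scores, so the lower scores here follow from that choice.

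The other 4 members with a Spo11 KO peak over the centre were chr18:13285905-13287404, which also had a Dom2 match, and 3 without a match, chr6:18566487-18568434, chr15:31924896-31926829 and chr3:82168720-82170091. The last lies in an intron of Mtap9, a gene of a microtubule-associated protein. The remaining 2 members, chrX:166407504-166408977 and chrX:166409700-166411105, lie in introns of Mid1 near the end of the X, with the peak 123 and 715 bp from the centre, and neither had a match. Prdm9 KO testes, which lack the protein, gave a peak at the central 400 bp of 9 members (0.111%), 3 of them with a Dom2 match. The share over all B6 DMC1 sites was not computed, so this count is a description only. The authors removed PRDM9 peaks over Prdm9 KO peaks and peaks found in both strains from the B6 list, so a site bound there would be counted as unmarked by construction.

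The unmarked sites were spread over all chromosomes, with an excess on the X. Of the members 594 (7.32%) lay on the X, where 5.65% of all B6 DMC1 sites lie, against 170 H3K4me3-only sites (3.94%). The difference was 3.38 percentage points (2.56 to 4.18, Fisher's exact test, adjusted p = 3.54e-14). Read the other way, 71.1% of the 835 DMC1 sites on the X were unmarked (67.9 to 74.2%), against 54.0% of the 13928 on autosomes (53.1 to 54.8%). Among autosomes the share ran from 47.3% on chromosome 12 (43.3 to 51.3%) to 61.6% on chromosome 18 (57.4 to 65.6%), so no autosome reached the X. Per sequenced Mb, members ranged from 2.53 on chromosome 12 to 4.01 on chromosome 18, with 3.66 on the X. The Y sequence held 11 DMC1 sites, of which 6 were unmarked, in or near Zfy1, Kdm5d, Uty, Ddx3y and Usp9y.

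Each DMC1 site falls in a single group, so the higher unmarked share of the X left less for the other groups together. On the X, 4.91% of DMC1 sites were PRDM9-bearing, against 13.0% on autosomes, and 20.4% were H3K4me3-only, against 29.8%. The unmarked sites of the X were not narrower than those of autosomes, with medians of 1690 and 1658 bp. Their share with a Dom2 match was 32.0% (190 of 594), against 33.0% on autosomes, a difference of -1.01 percentage points (-4.79 to 2.98, Fisher's exact test, adjusted p = 0.759). In RJ2 the X was set apart as well, with 48.8% of 913 sites unmarked against 12.3% of 14273 on autosomes.

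**Figure D3:**
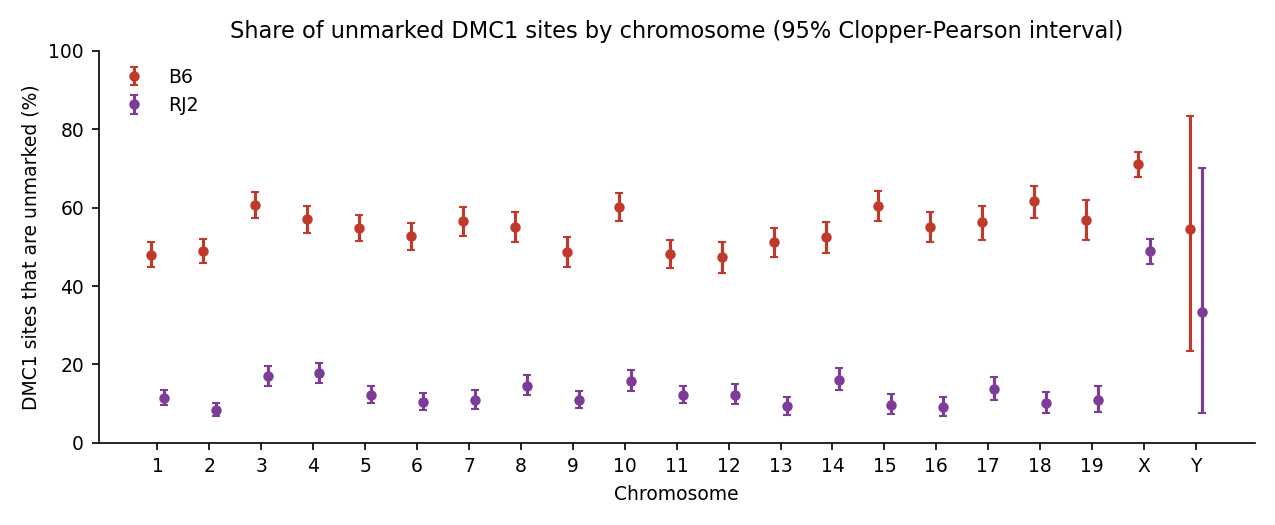
Share of DMC1 sites (%) that are unmarked on each chromosome, with 95% Clopper-Pearson intervals, in B6 and RJ2. The X is highest in both strains, at 71.1% in B6 and 48.8% in RJ2, apart from the few sites of the Y, whose intervals are wide.

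Along autosomes the unmarked sites were more frequent at the distal end. The distal 10 Mb held 839 of the 7515 autosomal members (11.2%), where 9.41% of all autosomal B6 DMC1 sites lie, and 304 of 4148 H3K4me3-only sites (7.33%). The difference was 3.84 percentage points (2.75 to 4.89, Fisher's exact test, adjusted p = 2.32e-11) and had the same direction on 15 of 19 autosomes. At the other end, the first 10 Mb after the unassembled 3 Mb at the centromere held 797 members (10.6%) and 266 H3K4me3-only sites (6.41%), a comparison added after seeing the data and not tested. Density was 4.44 members per sequenced Mb in the distal part, 4.22 in the first 10 Mb and 2.92 between, while that of H3K4me3-only sites was 1.61, 1.41 and 1.77. The Dom2 motif was at 34.7% in distal members and 32.8% in the rest of the autosomes, a difference of 1.90 percentage points (-1.45 to 5.36, Fisher's exact test, adjusted p = 0.386).

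On a scale of 10 Mb the share of unmarked sites varied widely. Of 263 windows with at least 5 Mb of sequence on autosomes and the X, 261 held 20 or more DMC1 sites, and their share of unmarked sites ran from 11.1 to 90.0% with a median of 55.1%. The lowest share was on chromosome 14 from 90000001 to 100000000, with 3 of 27 sites, followed by chromosome 4 from 130000001 to 140000000, with 8 of 40, and chromosome 11 from 50000001 to 60000000, with 13 of 64. The highest were the first window of chromosome 7, with 18 of 20, the last window of the X, with 62 of 69, and the first window of chromosome 3, with 24 of 27. The last window of the X was also the densest, with 9.47 members per sequenced Mb against a median of 3.10. Across the 246 autosomal windows Spearman's rho of the unmarked share was -0.220 with GC content and 0.212 with the number of DMC1 sites per Mb. Both are descriptions over windows that share their libraries.

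The last 1 Mb of the X, which takes in the boundary of the pseudoautosomal region where the X and Y pair and recombine in male meiosis, held 22 B6 DMC1 sites. Of these 20 were unmarked and 2 lay in common H3K4me3. The RJ2 list had 21 sites in the same stretch, of which 16 were unmarked, 3 were PRDM9-bearing and 2 lay in common H3K4me3. Of the 20 B6 members, 12 had an RJ2 centre within 1 kb and 10 within 250 bp. The authors removed PRDM9 peaks found in both strains from both lists. A PRDM9 peak shared by coinciding sites would therefore be missing here, and such sites could be counted as unmarked in both strains. Mid1, a ubiquitin ligase gene that spans the pseudoautosomal boundary in mice, held 13 of the 20. All 7 members in the last 250 kb of sequence had an RJ2 centre within 1 kb, at distances of 12 to 249 bp. A Dom2 match was found in 1 of the 20 (5.00%), against 189 of the 574 other members of the X (32.9%, difference -27.9 percentage points, -33.6 to -8.95, Fisher's exact test, adjusted p = 0.0146), and a Cst match in 1. The widths of the 20 had a median of 1786 bp and included the narrowest member of all, chrX:166427704-166428581, at 878 bp. The map of the stretch shows the B6 and RJ2 sites in register at its far end.

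**Figure D4:**
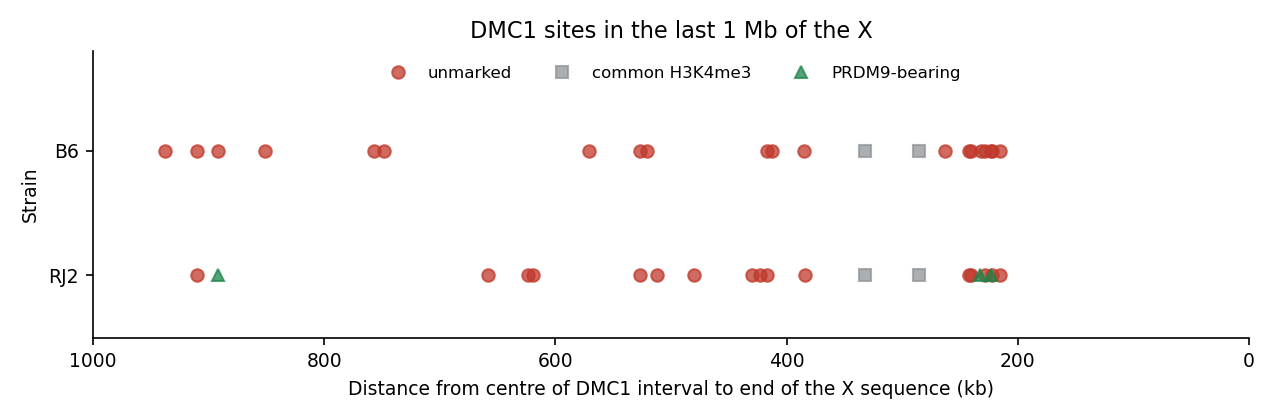
DMC1 sites of B6 (upper row) and RJ2 (lower row) in the last 1 Mb of the X, against the distance (kb) from the centre of each interval to the end of the X sequence. Symbols mark unmarked sites (20 in B6, 16 in RJ2), sites in common H3K4me3 (2 in each) and PRDM9-bearing sites (3, all in RJ2), and the sites within 250 kb of the end lie at nearly the same places in both strains. PRDM9 peaks found in both strains are not in the lists used.

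Unmarked sites coincided with RJ2 sites about as often as the whole B6 list did. An RJ2 DMC1 centre lay within 1 kb of 151 members (1.86%), where 1.79% of all B6 sites had one. H3K4me3-only sites had one in 15 cases (0.347%), a share that is low by construction, since B6-specific H3K4me3 intervals exclude those shared with RJ2. The difference between these groups, which is thus no result about the members alone, was 1.51 percentage points (1.16 to 1.86, Fisher's exact test, adjusted p = 3.54e-14), and 1.37 percentage points without the last 1 Mb of the X, an alternative added after seeing the data.

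The nearest RJ2 site of these 151 members was PRDM9-bearing in RJ2 for 58 (38.4%), H3K4me3-only for 46 (30.5%), in common H3K4me3 for 3 and itself unmarked for 44 (29.1%). RJ2-specific H3K4me3 lay at the central part of 99 members (1.22%) and an RJ2 PRDM9 peak at that of 42 (0.518%). The shares over all B6 DMC1 sites were not computed, so whether these are particular to members was not tested. Among the 44 sites unmarked in both strains, 9 lay in the last 1 Mb of the X, 6 (13.6%) had a Dom2 match and 7 (15.9%) a Cst match. The PRDM9 lists lack peaks found in both strains, so some of the 44 may have had a removed PRDM9 peak. The Dom2 share was lower than the 33.0% of all other members (difference -19.4 percentage points, -26.7 to -6.28, Fisher's exact test, adjusted p = 0.0146). The 107 members whose RJ2 counterpart carried a mark had a Dom2 match in 42 cases (39.3%), against 32.9% where no RJ2 site was near (difference 6.30 percentage points, -2.48 to 15.8, Fisher's exact test, adjusted p = 0.313). Members with an RJ2 site nearby thus fell into a set with few Dom2 matches, unmarked in both strains, and a set whose share was not distinguishable from that of other members. The widest of the 151 were chr3:19598638-19602587, chr13:7910484-7913431, chr5:82365404-82368341 and, near the end of the X, chrX:166420835-166423622 and chrX:165756905-165759592. The last covers the transcription start of Hccs, which encodes holocytochrome c synthase, 23 bp from its centre.

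Gene annotation separated the groups weakly. The centre of 4065 members (50.1%) lay inside a gene of the GENCODE annotation for mm9, where 52.7% of all B6 DMC1 sites do, against 2432 H3K4me3-only sites (56.3%). The difference of -6.20 percentage points (-8.03 to -4.36, Fisher's exact test, adjusted p = 7.72e-11) had the same direction on 18 of 20 chromosomes. Exons held the centre of 4.62% of members and 4.63% of H3K4me3-only sites, so the difference lay in introns, with 45.5 and 51.7%. A transcription start lay within 1 kb of 258 members (3.18%), where 4.01% of all sites had one, and of 150 H3K4me3-only sites (3.47%, difference -0.293 percentage points, -0.983 to 0.355, Fisher's exact test, adjusted p = 0.398). The rule takes out sites in common H3K4me3, which is found at active promoters, so this share is low by construction. The median distance to a transcription start was 24955 bp for members and 22278 bp for H3K4me3-only sites.

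The genes that held most members were long models. Gm20388 held 18 of its 28 DMC1 centres (a model of 4435 kb on chromosome 8) and Fgfr2, a fibroblast growth factor receptor gene, 16 of 26 (a model of 3009 kb in this annotation). Mid1 held 13 of 15 in 321 kb, or 40.6 per Mb, against 4.06 per Mb in Gm20388. 1700112E06Rik held 12 of 15 in 1036 kb, and Hs6st3, a heparan sulfate sulfotransferase gene, 10 of 12 in 731 kb.

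Genes of meiotic recombination held an unmarked site, in the gene or within 1 kb of its start, in 9 of the 55 cases found in the annotation (16.4%), where 12.3% of all protein-coding genes did. This was not tested, and gene length was not taken into account. Among the break formation genes 1 of 10 found in the annotation did, Mei4, needed for break formation, with 2 sites. Among genes of strand exchange and repair it was 2 of 18, Rpa1, of the single-strand binding complex, with 2 sites, and Rad54l, a recombination helicase gene, with 1. Crossover genes had 3 of 12, Cntd1, Msh4 and the X-linked Tex11, with 1 site each. Genes of the chromosome axis and synapsis had 3 of 15, Smc3, a cohesin gene, with 2 sites, and Trip13 and Sycp2 with 1 each. H3K4me3-only sites lay in 0, 3, 1 and 0 genes of the same 4 lists. A Dom2 match was present at the sites in Rad54l, Cntd1, Msh4 and Sycp2 and at 1 of the 2 in Rpa1, chr11:75153600-75155381, which lay 1199 bp from a start of Rpa1.

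Spacing and base composition differed from those of H3K4me3-only sites by a few percentage points or less, and the difference in GC passed the threshold. Another B6 DMC1 centre lay within 10 kb of 697 members (8.59%), where 8.72% of all sites had one, and of 396 H3K4me3-only sites (9.17%, difference -0.578 percentage points, -1.65 to 0.460, Fisher's exact test, adjusted p = 0.319). Stratified by quintiles of width the difference was -2.10 percentage points (exact conditional test, adjusted p = 1.66e-04), an analysis added after seeing the data. GC content in the central 400 bp averaged 43.1% in members, against 42.4% at 5 kb upstream and 42.3% at 5 kb downstream, and 42.5% at the centre of H3K4me3-only sites. It exceeded the mean of both flanks in 4516 of 8109 members with sequence (55.7%), where 55.2% of all sites did so, and in 2250 of 4319 H3K4me3-only sites (52.1%, difference 3.60 percentage points, 1.76 to 5.44, Fisher's exact test, adjusted p = 1.90e-04). The share was 59.9% in PRDM9-bearing sites and 56.5% in sites with common H3K4me3 alone. Members thus lay near the whole list, and H3K4me3-only sites were the lowest group. The plot of differences sets the 10 properties side by side.

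**Figure D5:**
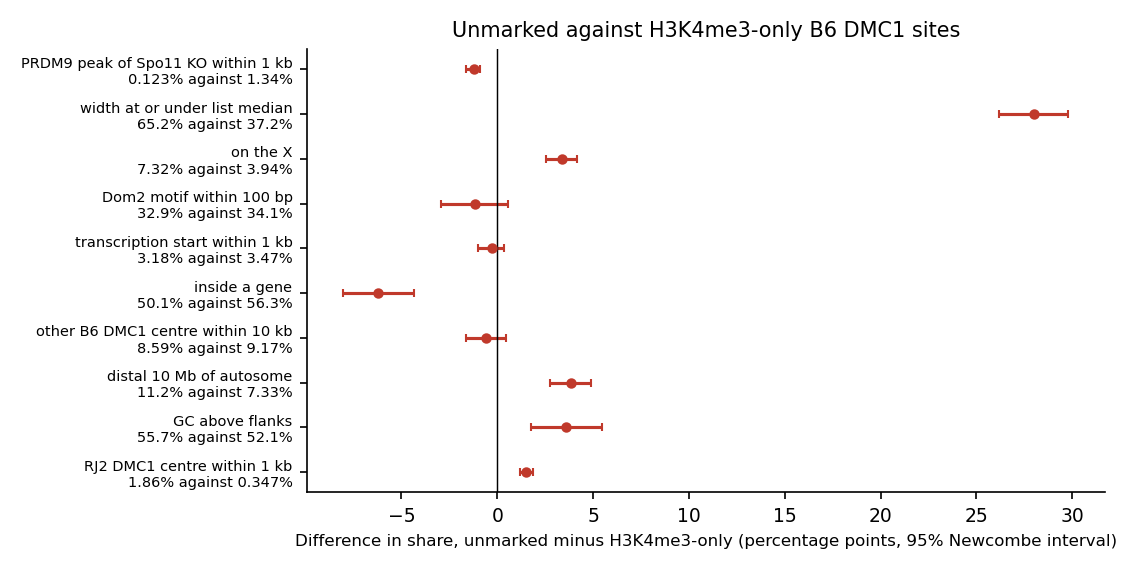
Difference in the share of sites with each of 10 properties, unmarked minus H3K4me3-only B6 DMC1 sites, in percentage points with 95% Newcombe intervals, and both shares beside each name. On this scale, on which rare properties cannot differ by much, width stands out at 28.0. The intervals of the Dom2 motif, transcription starts and spacing cross 0.

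The distance from members to the nearest mark is given without a comparison group, and the rule itself keeps marks off the central part. The nearest interval of the 3 lists lay a median of 23963 bp beyond the central 400 bp, with 5% of members under 1489 bp and 5% over 163301 bp. It was common H3K4me3 for 5796 members, B6-specific H3K4me3 for 2235 and a PRDM9 peak for 84. These lists differ in size, with 41014, 10835 and 2601 intervals in that order. Within the DMC1 interval but outside its central part, 214 members had a mark, 172 of them common H3K4me3 alone, 39 specific H3K4me3 and 3 PRDM9. Just inside the rule, 26 members had their nearest mark within 20 bp of the central part, 14 B6-specific and 12 common H3K4me3, with a median width of 1801 bp. Just outside it, 17 sites were overlapped by at most 20 bp, 12 by specific and 5 by common H3K4me3, with a median width of 2146 bp.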

How the data were processed

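ChIP-seq peak lists of mouse testes were read as the authors deposited them, as BED intervals on mm9. The unit of the deposited values is another than a measured level, a position in bp, with no score, count or depth, so precision is given by the number of intervals only. The authors mapped DMC1 reads with a BWA pipeline for single-stranded DNA, PRDM9 and H3K4me3 reads with Bowtie or Bowtie2, called peaks with MACS, used the irreproducible discovery rate between replicates for DMC1 and PRDM9, and pooled replicates.

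The central 400 bp around each DMC1 midpoint was intersected (1 bp) with the marks. Members, lists and tests were chosen with earlier results of these data known. Each share has a 95% Clopper-Pearson interval for counting error, not for variation between mice. Groups were compared with Fisher's exact test, two-sided, and the 10 comparisons with H3K4me3-only sites, like the 7 within members, were adjusted by Benjamini-Hochberg. Sequence and genes came from NCBIM37 (the sequence of mm9) and its GENCODE annotation. The Dom2 and Cst matrices were learned in 3 rounds. Named sites are the widest, those nearest to Spo11 KO peaks, those with RJ2 sites and those with the best motif scores outside chromosome 18. Also named are those in the last 1 Mb of X, in genes of 4 lists or in the 5 genes with most members. Other rules for the overlap, the motif, the distances and the width were tried. The methods were tested on simulated data: 500 of 500 overlaps, 400 of 400 planted groups and 200 of 200 planted motifs were recovered. The planted motifs had at most 1 changed base, so their recovery does not measure sensitivity to real sites. The Dom2 matrix matched 51.7% of its own training peaks. Python 3.11.15, numpy, scipy, statsmodels and matplotlib were used.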

Additional observations from a re-analysis of the deposited data

Results flagged for a closer look

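In 4 of 9 properties, the contrast of unmarked with H3K4me3-only sites differed between B6 and RJ2 by Zelen's exact test of equal odds ratios, adjusted over the 9. Narrow intervals were 65.2 against 37.2% in B6 and 70.4 against 61.1% in RJ2 (odds ratios 3.16 and 1.51, exact adjusted p = 6.92e-27). Sites on the X were 7.32 against 3.94% in B6 and 20.2 against 5.45% in RJ2 (odds ratios 1.92 and 4.39, exact adjusted p = 5.05e-11). The motif of the strain's own PRDM9 allele was at 32.9 against 34.1% in B6 and 33.8 against 38.6% in RJ2 (odds ratios 0.949 and 0.810, exact adjusted p = 0.0382). The distal 10 Mb of autosomes held 11.2 against 7.33% in B6 and 9.10 against 9.19% in RJ2 (odds ratios 1.59 and 0.992, exact adjusted p = 1.55e-04), so in RJ2 this property showed no difference beyond its interval, -1.57 to 1.53 percentage points. The unmarked sites are 54.9% of the B6 list and 14.5% of the RJ2 list, and the part of that gap in these contrasts was not tested.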

How the results depend on the processing

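Of 64 alternative values, 56 kept their direction and their side of the threshold, or their size, against the values reported. The number of members was 7901 when the whole DMC1 interval had to be free of marks, 8457 when only the centre base had to be, and 7864 for 1 kb either side. The difference in Dom2 matches from H3K4me3-only sites was 0.287 percentage points at the stricter score and 0.656 with the leading word of 9 bases, both past 0 in the other direction and short of the threshold (Fisher's exact test, adjusted p = 0.693 and 0.396). Stratified by width it was -3.20, and that for a neighbour within 10 kb -2.10, both then past the threshold. With 5 kb in place of 1 kb, the difference in transcription starts was -2.05 percentage points (Fisher's exact test, adjusted p = 0.00527). The cause of these changes was not tested. No paired analysis was possible because the lists pool the replicates, and for the same reason no replicate could be left out. A comparison of repeat-masked sequence was not run, since the sequence used here carries no repeat mask. Depth behind each interval is unknown, so a weak mark and an absent mark cannot be told apart.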
